A study of Mus musculus with 4 samples.

Results

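The mitochondrial genome of the mouse carries 37 genes, and all of them were found among the 37310 genes of the raw count table. They were chosen by name alone, as every row whose GENCODE vM1 symbol starts with mt-, and every row on the mitochondrial chromosome had such a symbol. They comprise 13 mRNAs, 2 rRNAs and 22 tRNAs, which are described separately because rRNA depletion, read length and gene overlap bear on the 3 classes in different ways.

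The mitochondrial genome is a small circle that is transcribed from both strands into long precursors covering many genes. Most of its mRNAs and both rRNAs are flanked by tRNAs, and the tRNAs are cut out of the precursors to release the RNAs between them. The mRNAs encode core subunits of the respiratory chain (complexes I, III and IV) and of the ATP synthase, the rRNAs (*mt-Rnr1* and *mt-Rnr2*) build the mitochondrial ribosome, and the tRNAs serve that ribosome. All proteins that transcribe, process, modify and degrade these RNAs are encoded in the nucleus. Embryonic stem cells are known for rounded, immature mitochondria and a strong use of glycolysis.

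RNA-seq was performed in HATX mouse embryonic stem cells (mESCs), a line that the study describes as haploid and in which an *Xist* transgene on the X chromosome can be induced with doxycycline. The groups were HATX WT (2 libraries) and HATX *Spen* KO clone 2 (2 libraries), a clone described as lacking most or all of *Spen*, which encodes an RNA-binding repressor needed by *Xist*. Both groups carry the transgene, share a mixed genomic background and were grown in serum and LIF on gelatin with no treatment stated. Each group is 1 line, so that loss of *Spen* and any other difference between the clone and the WT line cannot be told apart, and nothing states that replicates came from separate cultures, so the spread between them may be technical.

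Total counts ran from 36667685 to 43835004 in the WT and from 54715889 to 61908422 in the KO libraries. *Spen* itself had 3716 and 3047 normalized counts in WT and 7797 and 6242 in the libraries labelled KO. Gene-level counts do not resolve the deleted part, so they check the label in neither direction, and the group is called KO-labelled here. The summed level of 10 stem cell markers lay between 247489 and 265335 normalized counts in every library. At a DESeq2 adjusted p under 0.05, 2 members were higher (*Dppa5a* at 0.28 and *Zfp42* at 0.23 on the log2 scale) and 1 lower (*Fgf4* at -0.21). Of all genes tested, 16.4% were higher and 15.8% lower at that threshold. The summed level of 8 fibroblast markers was 215 and 220 in WT and 435 and 509 in the KO-labelled libraries, most of it from *Thy1*. The list's median log2 fold change over 5 tested members was -0.25, and the 4 other than *Thy1* did not pass the test. *Col1a1* had both KO-labelled libraries above both WT libraries (27.8 and 21.8 against 49.6 and 47.7 normalized counts), while *Col1a2*, *Col3a1* and *Pdgfra* had both KO-labelled libraries below both WT libraries (*Pdgfra* 42.4 and 28.3 against 13.9 and 23.5 normalized counts). *Lum* and *Postn* did not exceed 2.65 normalized counts in any library. Markers of differentiated lineages summed to 1350 and 1495 in WT and to 346 and 318 in the KO-labelled libraries. Of 7 tested members, 5 were lower at a DESeq2 adjusted p under 0.05, a threshold at which 15.8% of all genes tested were lower. *Mixl1* went the other way (35.8 and 30.5 in WT against 48.8 and 48.5 normalized counts) and *Gata6* overlapped between groups, and neither was called. The part of these other cells in the mitochondrial values was not tested. Since these are bulk libraries, fewer mitochondria per cell, less RNA per mitochondrion and a different mix of cells cannot be told apart.

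Before any level is read, the copies of the mitochondrial genome in the nuclear chromosomes have to be considered, because a read that matches both places may not have been counted. In the mm9 assembly the mitochondrial genome has 16299 bases, and 64 nuclear alignments of at least 75 bases, the read length, were found. The longest lies on the minus strand of chromosome 1 (chr1:24618374-24623027). It copies mitochondrial positions 6390 to 11042, from within *mt-Co1* to within *mt-Nd4*, at 99.936% identity over 4654 aligned bases. The next lies on chromosome 2 (chr2:22442808-22446054) at 97.362% identity and covers positions 4441 to 7699. The chromosome 1 copy differs from the mitochondrial genome by 2 substitutions, A6393T in *mt-Co1* and T9461C in *mt-Nd3* (mitochondrial base, position from 1 on the mitochondrial genome, base of the copy), and by an extra A in the run of A of *mt-Tr*. The mitochondrial sequence around both substitutions is shown. In the mm9 sequences, these are the only places where a single read within the stretch could be told from its copy, apart from the *mt-Tr* run. The mitochondrial sequence of the cells themselves was not examined. The capital marks the base that differs:
*mt-Co1*, positions 6356 to 6430: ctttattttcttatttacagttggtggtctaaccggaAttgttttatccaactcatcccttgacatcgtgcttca
*mt-Tg* to *mt-Nd3*, positions 9424 to 9498: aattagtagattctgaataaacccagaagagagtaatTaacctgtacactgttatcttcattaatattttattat

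The counts of the mRNAs divided along this copy. Each gene was cut into all 75-base windows, and a window was called copied when the same 75 bases occurred in a nuclear chromosome. In 5 mRNAs 100% of the windows were copied, and none of these 5 exceeded 13 raw counts in any library. They are *mt-Co2* (cytochrome c oxidase subunit; 2, 2, 2 and 3 raw counts in WT replicates 1 and 2 and KO-labelled replicates 1 and 2), *mt-Atp8* (ATP synthase; 1, 0, 0 and 0), *mt-Atp6* (ATP synthase; 1, 0, 0 and 0), *mt-Co3* (cytochrome c oxidase; 13, 11, 12 and 9) and *mt-Nd4l* (complex I; 2, 0, 2 and 2). *mt-Nd3*, a complex I subunit whose first bases hold the T9461C difference, had 3 of 274 windows free of a copy and 107, 99, 126 and 114 raw counts. The 7 mRNAs with at least 10 windows of their own never had fewer than 2607 raw counts. *mt-Co1* was copied in 39.8% of its windows, *mt-Nd4* in 61.5%, *mt-Nd2* in 5.71% and *mt-Nd5* in 1.66%, and *mt-Nd1*, *mt-Nd6* and *mt-Cytb* in 0%. Of the rRNAs, *mt-Rnr2* was copied in 2.85% of its windows and *mt-Rnr1* in 0%. How reads with several matches were treated is not stated, and whether they were dropped was not tested. The levels of the 5 fully copied mRNAs and of *mt-Nd3* are therefore uncertain, and these counts do not measure how strongly the ATP synthase subunits, *mt-Co2*, *mt-Co3* and *mt-Nd4l* were expressed.

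**Figure D1:**
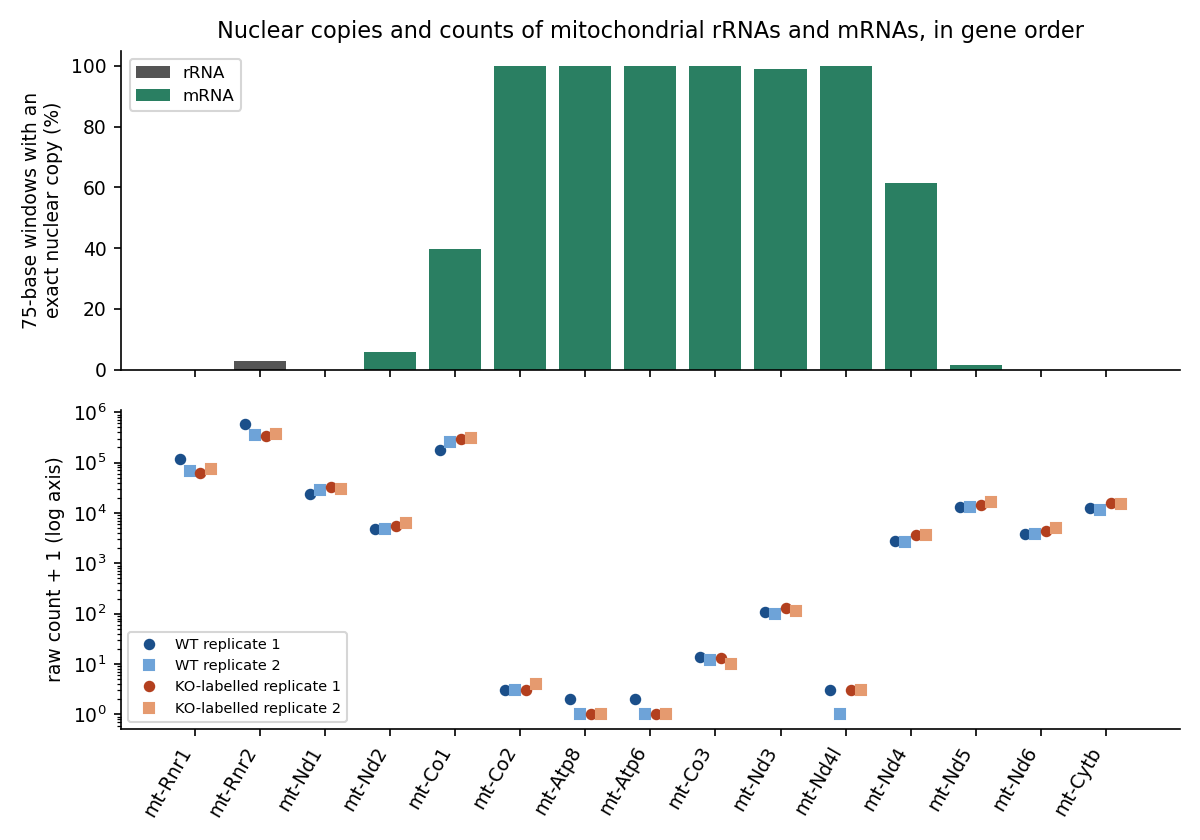
Upper panel, the percent of 75-base windows of each rRNA and mRNA with an exact nuclear copy, and lower panel, its raw count plus 1 in each of the 4 libraries (log axis), in the order of the genes on the mitochondrial genome. From mt-Co2 to mt-Nd4l, the genes copied in 100% of windows have at most 13 raw counts, and mt-Nd3, at 98.9%, has 99 to 126.

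Few counts were found on the annotated nuclear genes within these copies. Of the annotated nuclear genes, 7 hold at least 1 exonic base in an exact 75-base match to the mitochondrial genome, and none of those with at least 200 such bases reached a mean of 50 normalized counts. *Gm13340*, a pseudogene on chromosome 2 named after its values were seen, had 39, 30, 55 and 38 raw counts, and the others had at most 14 in any library. The table holds no counts for the unannotated rest of the copies, so reads placed there were not measured.

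Among the mRNAs with counts, *mt-Co1*, the catalytic subunit of complex IV, was the most abundant by far. Its normalized counts (raw counts divided by DESeq2 size factors) were 233228 and 277975 in WT and 251353 and 240970 in the KO-labelled libraries, and it made up 74.2% to 80.2% of all mitochondrial mRNA counts. On the scale of normalized counts per kilobase of gene, the order of the mean levels over the 4 libraries was *mt-Co1* (162383 ± 12640, SD, n = 4), *mt-Nd1* (29874 ± 4010), *mt-Cytb* (11890 ± 1844), *mt-Nd6* (8109 ± 1037), *mt-Nd5* (7877 ± 1300), *mt-Nd2* (5192 ± 651), *mt-Nd4* (2267 ± 268) and *mt-Nd3* (322 ± 62.8). Each gene was above the next one in all 4 libraries with no overlap, except that *mt-Nd6* was above *mt-Nd5* in 3 of 4 and their ranges overlapped. *mt-Nd6* is the only mRNA gene on the minus strand, and its level per length overlapped that of *mt-Nd5*, its neighbour on the plus strand. The ratio of the normalized counts of *mt-Nd6* to those of *mt-Nd5* was 0.280 and 0.293 in WT and 0.291 and 0.313 in the KO-labelled libraries. How the counting treated strand is not stated. If strand was not used, counts on *mt-Nd6* can also come from plus-strand precursors that run through it, so that its level, this ratio and its comparison between groups are uncertain as measures of the *mt-Nd6* mRNA.

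Part of that order depends on the copies. Counted per 1000 windows found once in the genome, *mt-Co1* came to 283482, *mt-Nd4* to 6223 and *mt-Nd2* to 5929, so that the last pair changed places and overlapped, with *mt-Nd4* above *mt-Nd2* in 3 of 4 libraries. On this scale *mt-Nd3* came to 37383, second after *mt-Co1* and overlapping *mt-Nd1* (32377), but this value rests on 3 windows. Neighbours *mt-Cytb* (12712) and *mt-Nd6* (9458), and *mt-Nd6* and *mt-Nd5* (8348), also overlapped. The 3 mRNAs without a copied window kept the order *mt-Nd1*, *mt-Cytb*, *mt-Nd6* on both scales.

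**Figure D2:**
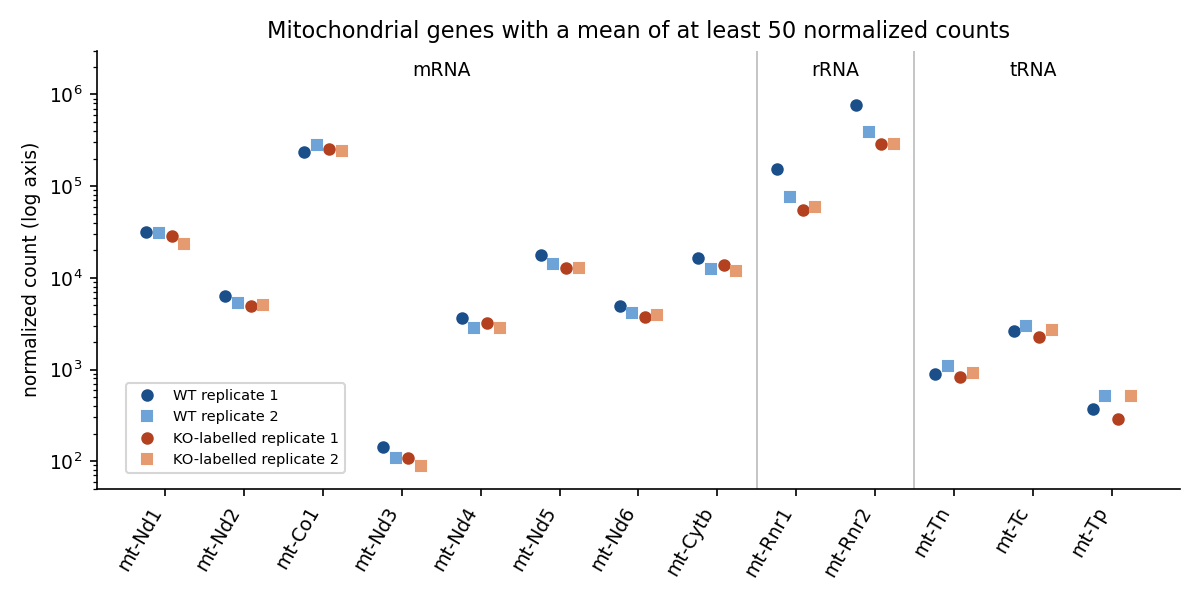
Normalized counts (log axis) of the 13 mitochondrial genes with a mean of at least 50, by library. The mRNAs differ far more from each other than between groups, and in both rRNAs WT replicate 1 stands above the other 3 libraries.

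The comparison of the groups asks whether mitochondrial RNAs differ when *Spen* is lost. DESeq2 gave an adjusted p to 9 of the 13 mRNAs, of which only *mt-Co1*, *mt-Co3* and *mt-Cytb* are outside complex I. Of the 9, 4 were lower in the KO-labelled libraries at an adjusted p under 0.05, all complex I subunits, with 0 higher. Of all 17710 genes tested, 15.8% were lower and 16.4% higher at that threshold. None of the 9 passed the study's own thresholds, a change of 2-fold or more with an adjusted p under 0.001, by which 3.15% of all genes were lower and 1.36% higher. The 8 mRNAs with a mean of at least 50 all had negative log2 fold changes, with a median of -0.24, against 0.03 over the 13306 genes at that mean. When 1 library was left out, this median ran from -0.36 to -0.11. Without WT replicate 1, *mt-Nd4* (0.09) and *mt-Cytb* (0.05) were positive, as was *mt-Co1* (0.08) without WT replicate 2. The mRNAs come from shared precursors and are not independent of each other.

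The 4 complex I mRNAs fell by modest amounts. *mt-Nd5* (chromosome M, 11742 to 13565) had 17774 and 14198 normalized counts in WT and 12820 and 12679 in the KO-labelled libraries. Both KO-labelled values lay below both WT values, and WT replicate 1 stood highest. It fell by 20.2%, and its log2 fold change was -0.33 ± 0.09 (SE, DESeq2 adjusted p = 0.00232). *mt-Nd1* (2751 to 3707) had 31827 and 30776 in WT and 28541 and 23213 in the KO-labelled libraries. Here the WT pair was close and KO-labelled replicate 2 stood lowest, and the log2 fold change was -0.27 ± 0.09 (DESeq2 adjusted p = 0.00793). *mt-Nd2* (3914 to 4951) had 6370 and 5290 against 4880 and 5018, a log2 fold change of -0.24 ± 0.09 (DESeq2 adjusted p = 0.0376). *mt-Nd6* (13552 to 14070, minus strand) had 4972 and 4159 against 3730 and 3975, a log2 fold change of -0.24 ± 0.10 (DESeq2 adjusted p = 0.0373). In both, the groups did not overlap, and the higher WT value was again that of replicate 1. Groups were separated in this way in 4 of the 8 mRNAs with a mean of at least 50, while both KO-labelled libraries lay below both WT libraries in 34.8% of all genes tested.

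The other mRNAs with counts were not distinguishable between groups. *mt-Nd4* (complex I, 10167 to 11544) had 3615 and 2839 normalized counts in WT and 3202 and 2840 in the KO-labelled libraries, a log2 fold change of -0.09 (95% interval -0.32 to 0.13). *mt-Cytb*, the mitochondrially encoded subunit of complex III (14145 to 15288), had 16506 and 12357 against 13771 and 11774, at -0.18 (-0.61 to 0.26). *mt-Co1* (5328 to 6872), with the values given above, was at -0.05 (-0.21 to 0.10). In these 3 the groups overlapped. *mt-Nd3* (9459 to 9806) had 142 and 108 against 110 and 89.2, at -0.33 (-0.98 to 0.33), and its groups also overlapped. *mt-Co3*, on at most 13 raw counts, was at -0.74 ± 0.98 (SE). DESeq2 adjusted p of these 5 genes ran from 0.517 to 0.680, and the 4 other fully copied mRNAs had too few counts for an adjusted p. The fall was not tested for a difference between complex I and the rest. Complex I mRNAs made up 20.6% and 16.5% of mitochondrial mRNA counts in WT and 16.7% and 15.9% in the KO-labelled libraries, so that WT replicate 1 stood apart and the other 3 were close.

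The calls of the complex I mRNAs depended on single libraries, and those of *mt-Nd2* and *mt-Nd6* also on the scaling. With upper-quartile size factors these genes were at -0.20 and -0.21 and were no longer called, while *mt-Nd1* and *mt-Nd5* still were. WT replicate 1 was the highest of the 4 libraries in 7 of the 8 mRNAs, all but *mt-Co1*. Without WT replicate 1, 0 of the 4 were called and their log2 fold changes ran from -0.25 to -0.09. Without KO-labelled replicate 2, 0 of the 4 were also called, with log2 fold changes from -0.32 to -0.13. Without KO-labelled replicate 1, only *mt-Nd1* was called, and the 4 lay between -0.42 and -0.19. Without WT replicate 2, 3 of the 4 were called, at -0.48 to -0.36, while *mt-Nd1* (-0.29) was lost and *mt-Cytb* was called at -0.37. Among these 4 fits, the fold of *mt-Nd2*, *mt-Nd5* and *mt-Nd6* moved most without WT replicate 1, and that of *mt-Nd1* without either KO-labelled library. To describe the mRNAs relative to each other, libraries were also scaled to the 8 mitochondrial mRNAs themselves. This centres them near 0 by construction and moves the median of all genes to 0.23, so that the absence of calls on this scale (0 mRNAs) and the positive log2 fold changes of *mt-Co1*, *mt-Nd4* and *mt-Cytb* (0.14, 0.12 and 0.04) say nothing of the calls above. On this scale the complex I mRNAs *mt-Nd1*, *mt-Nd2*, *mt-Nd5* and *mt-Nd6* lay between -0.11 and -0.02, and the mRNAs farthest apart, *mt-Co1* and *mt-Nd3*, differed by 0.25.

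**Figure D3:**
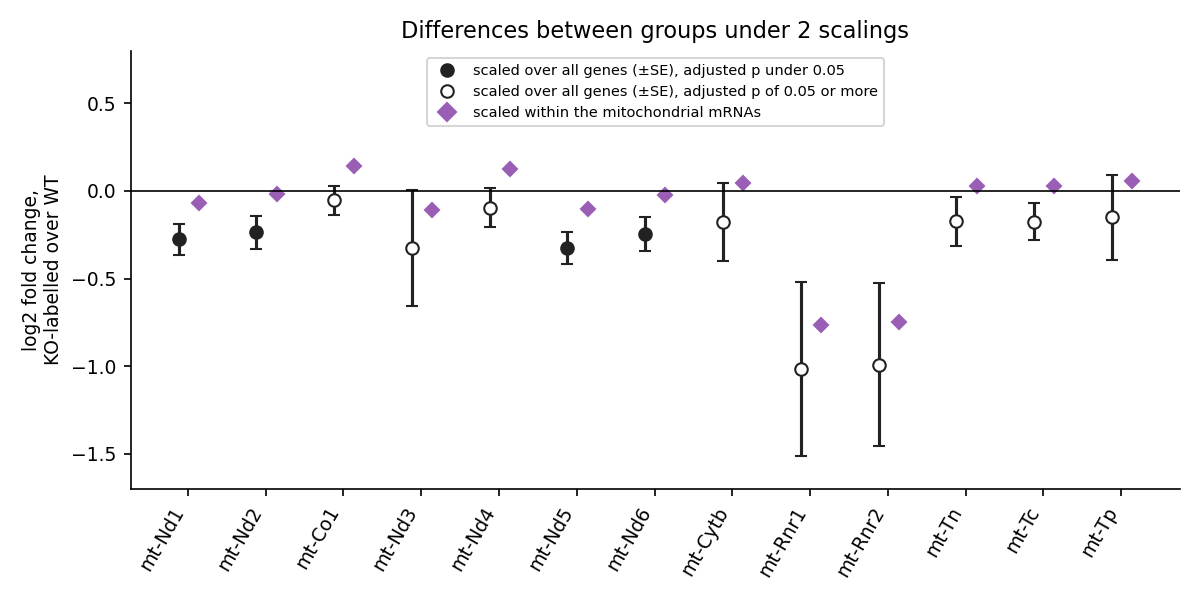
Log2 fold change of each mitochondrial gene with a mean of at least 50, KO-labelled over WT, with size factors over all genes (circles, bars are ±SE, filled where the DESeq2 adjusted p is under 0.05) and with size factors from the mitochondrial mRNAs (diamonds). The 4 filled circles are complex I mRNAs between -0.33 and -0.24, their diamonds lie between -0.11 and -0.02, and the rRNAs have the widest bars.

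The rRNAs differed most between the WT replicates, while the KO-labelled replicates were close. RNA was depleted of rRNA before library preparation, and the level measured is what depletion left. *mt-Rnr2* (the large subunit rRNA, 1094 to 2675) had 759992 and 390482 normalized counts in WT and 290531 and 288343 in the KO-labelled libraries. *mt-Rnr1* (the small subunit rRNA, 70 to 1024) had 154604 and 75659 in WT and 54465 and 59430 in the KO-labelled libraries. In both genes both KO-labelled libraries lay below both WT libraries, and WT replicate 1 stood far above the rest, 2.04-fold above WT replicate 2 for *mt-Rnr1* and 1.95-fold for *mt-Rnr2*. Over the 8 mRNAs the same ratio of WT replicate 1 to WT replicate 2 ran from 0.839 to 1.34.

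Log2 fold changes of the rRNAs were -1.02 ± 0.50 (SE) for *mt-Rnr1* and -0.99 ± 0.46 for *mt-Rnr2*. DESeq2 called neither (adjusted p = 0.109 and 0.0888), while 2 of 2 had an unadjusted p under 0.05 and edgeR's quasi-likelihood test called both (adjusted p = 0.00255 and 0.00188). Over all alternatives the adjusted p ran from 1.18e-53 to 0.475 for *mt-Rnr1* and from 2.06e-60 to 0.431 for *mt-Rnr2*. Without WT replicate 1 the log2 fold changes were -0.41 and -0.43, and without WT replicate 2 they were -1.44 and -1.39. In both of those fits the rRNAs were called, since the spread then came from the KO-labelled pair alone, whose values were close. The size of the rRNA difference therefore depends on which WT library is kept.

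The rRNAs moved together. *mt-Rnr2* had 4.92 and 5.16 counts per *mt-Rnr1* count in WT and 5.33 and 4.85 in the KO-labelled libraries, and per length the ratio lay between 2.93 and 3.22 in every library. Relative to the mRNAs they did not stay constant. There were 2.91 mitochondrial rRNA counts per mitochondrial mRNA count in WT replicate 1, 1.34 in WT replicate 2, and 1.08 and 1.16 in the KO-labelled libraries.

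A pair of nuclear genes, named after their values were seen, were also highest in WT replicate 1 and lower in both KO-labelled libraries. *Lars2*, which encodes the mitochondrial leucyl-tRNA synthetase (chromosome 9), had 716146 and 169048 normalized counts in WT and 91055 and 37447 in the KO-labelled libraries, a log2 fold change of -2.78 ± 1.08 (SE, DESeq2 adjusted p = 0.0325). *Gm15564* (chromosome 16) had 24135 and 8168 against 2501 and 1193, a log2 fold change of -3.13 ± 0.86 (DESeq2 adjusted p = 0.00159). Without WT replicate 1 the log2 fold change of *Lars2* was -1.39 and that of *Gm15564* -2.14, and neither was called (DESeq2 adjusted p = 0.381 and 0.0635, in ranges of 1.62e-09 to 0.381 and 2.05e-122 to 0.104 over all alternatives). Both calls were also lost without KO-labelled replicate 2 (-2.28 and -2.69), and that of *Lars2* without KO-labelled replicate 1 (-3.56). WT replicate 1 exceeded WT replicate 2 by 4.24-fold and 2.95-fold in them. The KO-labelled replicates also differed here, with replicate 1 at 2.43-fold and 2.10-fold the level of replicate 2, against 0.916-fold in *mt-Rnr1* and 1.01-fold in *mt-Rnr2*. Neither gene has an alignment to the mitochondrial genome. In WT replicate 1 the count of *Lars2* even exceeded that of *mt-Co1* (716146 against 233228 normalized counts). Gene-level counts do not show which part of a gene the reads came from. Whether these counts measure the mRNA of the synthetase was therefore not tested. The summed counts of the annotated nuclear rRNA rows (5S, 5.8S and their copies) were 318 and 273 in WT and 200.3 and 193 in the KO-labelled libraries. Whether these genes and the mitochondrial rRNAs share a cause, such as the extent of rRNA depletion, was not tested.

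**Figure D4:**
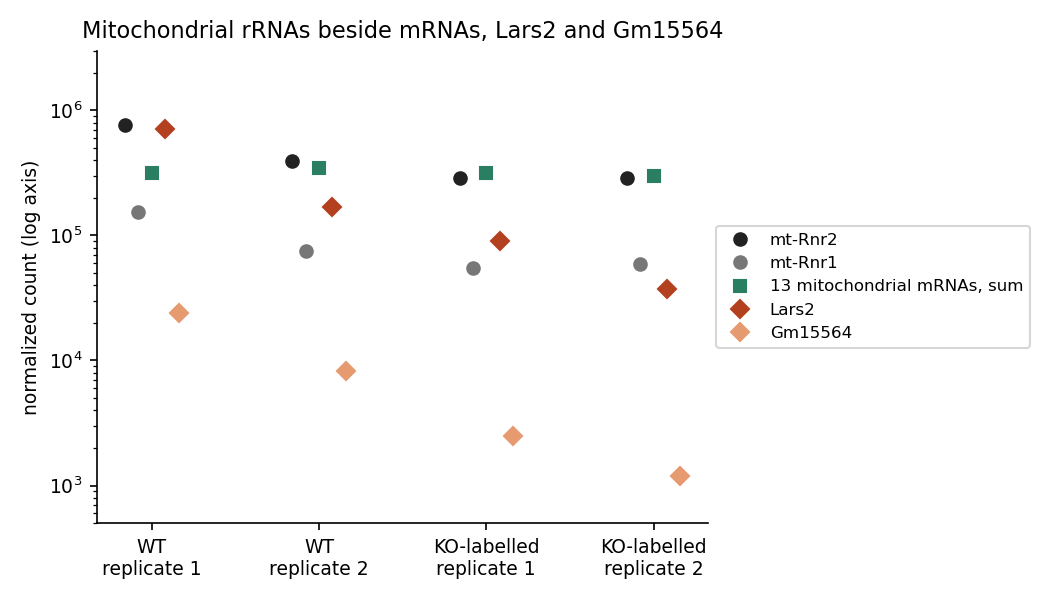
Normalized counts (log axis) of the mitochondrial rRNAs, the sum of the 13 mitochondrial mRNAs, Lars2 and Gm15564 in each library. The mRNA sum, of which mt-Co1 makes up 74.2% to 80.2%, is nearly level over the 4 libraries, while both rRNAs, Lars2 and Gm15564 are highest in WT replicate 1, as are 7 of the 8 mRNAs with a mean of at least 50 when taken singly.

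The share of each library taken by mitochondrial genes followed the rRNAs. Mitochondrial rRNAs took 1.88% and 0.977% of all counts in WT and 0.724% and 0.718% in the KO-labelled libraries, means of 1.43% ± 0.64 and 0.721% ± 0.0044 (SD, n = 2), a 1.98-fold difference. Mitochondrial mRNAs took 0.647% and 0.728% in WT and 0.668% and 0.620% in the KO-labelled libraries, and the groups overlapped. The tRNAs took 0.00806% and 0.00954% in WT and 0.00715% and 0.00849% in the KO-labelled libraries, again with overlap. With 2 libraries against 2, the two-sided exact permutation test cannot give a p below 0.333, which is the value for the rRNA share. For the mRNA and tRNA shares it gave 0.667. Without WT replicate 1 the log2 ratio of the rRNA shares moved from -0.99 to -0.44, and without WT replicate 2 to -1.38.

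Of the 22 tRNAs, only *mt-Tn*, *mt-Tc* and *mt-Tp* had any count, and the other 19 were at 0 in all 4 libraries, where a count of 0 allows up to 3 counts (counting error only). The 3 are shown with their anticodons in capitals, each read 5′ to 3′ from the minus strand of the mitochondrial genome, on which they lie. *mt-Tl1*, from the plus strand and at 0, is shown for comparison because at 75 bases it is as long as a read:
*mt-Tn*, positions 5089 to 5159: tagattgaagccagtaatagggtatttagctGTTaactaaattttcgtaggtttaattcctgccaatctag
*mt-Tc*, positions 5192 to 5257: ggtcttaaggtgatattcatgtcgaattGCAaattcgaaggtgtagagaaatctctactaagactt
*mt-Tp*, positions 15356 to 15422: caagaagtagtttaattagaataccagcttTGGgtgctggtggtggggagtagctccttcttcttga
*mt-Tl1*, positions 2676 to 2750: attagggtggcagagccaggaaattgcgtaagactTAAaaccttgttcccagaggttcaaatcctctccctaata

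In the linear sequence of the assembly, which starts at *mt-Tf*, these 3 also differ from the others in the free sequence around them. The tRNA genes are 59 to 75 bases long and most abut another gene directly, so that a 75-base read on them must also touch a neighbour. For 18 of the 22, no 75-base window on the gene was free of every other gene on either strand, and 0 of these had a count. *mt-Tl1* had exactly 1 free window and no count. *mt-Tn*, *mt-Tc* and *mt-Tp* had 31, 26 and 67 free windows, and all 3 had counts in every library. *mt-Tp* borders the non-coding control region. On the circle *mt-Tf* (positions 1 to 68, at 0) borders it too, but windows across the ends of the linear sequence were not counted. *mt-Tn* and *mt-Tc* lie on either side of the light-strand origin of replication. It is a stretch of 32 bases at positions 5160 to 5191 in which no gene is annotated (minus strand, nothing in capitals):
between *mt-Tc* and *mt-Tn*: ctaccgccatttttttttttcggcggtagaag

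Counted against genes on the same strand alone, the picture was different. Then 13 tRNAs had more than 1 free window, and 10 of them were at 0. All 5 minus-strand tRNAs at 0 (*mt-Tq*, *mt-Ta*, *mt-Ty*, *mt-Ts1* and *mt-Te*) were among these, with 69 to 145 windows each. In the linear sequence the zeros thus followed the windows free on either strand and not those free on the same strand. The strand setting of the counting is not stated and was not tested. A count of 0 therefore says nothing here of how much of these tRNAs the cells held. The counts of the other 3 can also come from longer RNAs that run past the tRNA.

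**Figure D5:**
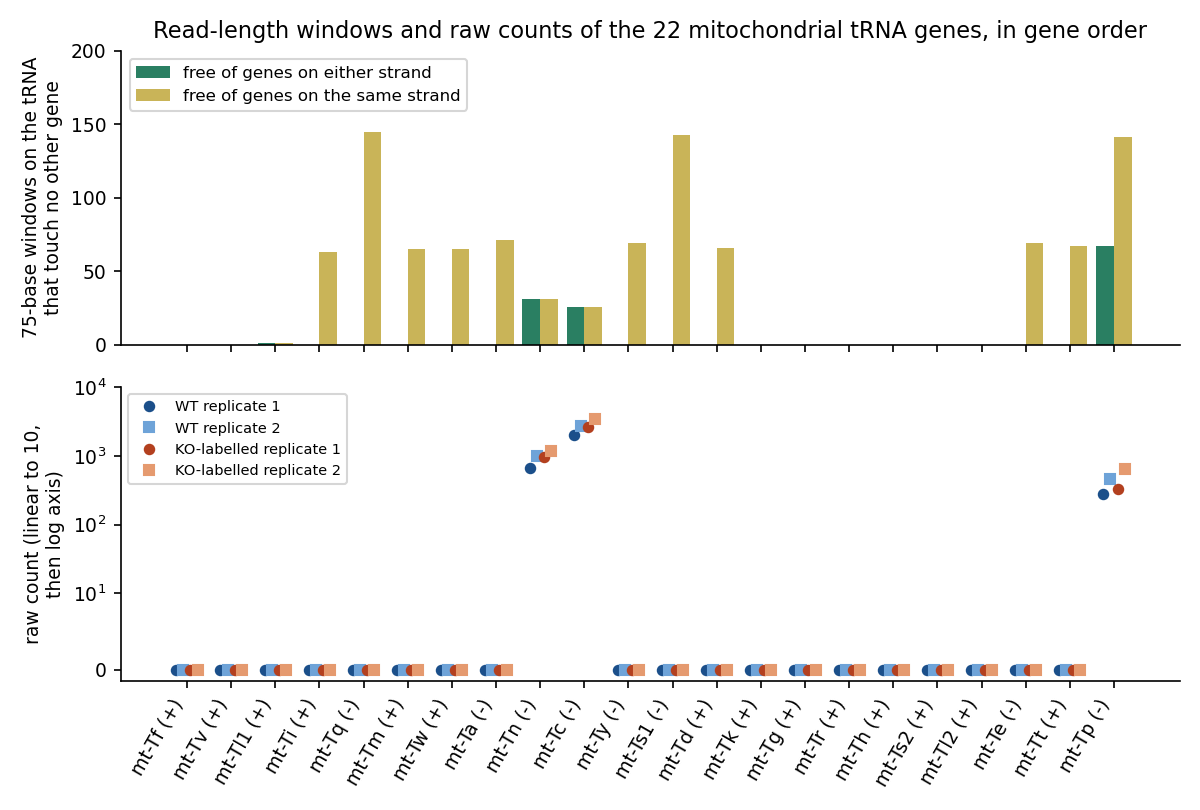
Upper panel, number of 75-base windows on each tRNA gene that touch no other gene on either strand (green) or on the same strand (yellow), and lower panel, raw counts in each library (linear to 10, then log axis), in gene order with the strand in brackets. Counts appear in the 3 genes with more than 1 green window and in no other. Windows were taken on the linear sequence, which starts at mt-Tf.

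Between groups the 3 tRNAs were not distinguishable. *mt-Tc* (cysteine) had 2645 and 2959 normalized counts in WT and 2280 and 2679 in the KO-labelled libraries, a log2 fold change of -0.18 ± 0.11 (SE). *mt-Tn* (asparagine) had 898 and 1087 against 836 and 926, at -0.17 ± 0.14. *mt-Tp* (proline) had 375 and 510 against 288 and 509, at -0.15 ± 0.24, and ran from -0.62 to 0.21 when 1 library was left out. In each of them the groups overlapped. DESeq2 adjusted p ran from 0.208 to 0.707, with 0 of 3 at an unadjusted p under 0.05, and edgeR also called 0. Per free window, *mt-Tc* held a mean of 102 normalized counts, *mt-Tn* 30.2 and *mt-Tp* 6.28. Only 10 of the 31 free windows of *mt-Tn* are found once in the genome, and over these it held 93.7 per window, so that its distance from *mt-Tc* depends on how reads with several matches were treated, which was not tested.

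The nuclear genes that make and handle mitochondrial RNA were then examined in 7 lists of 87 genes, of which 85 were in the table and 84 were tested. At a DESeq2 adjusted p under 0.05, 6 were lower (7.14%) and 19 higher (22.6%), against 15.8% and 16.4% of all genes tested, and their median log2 fold change was 0.07. None passed the study's thresholds. Calls were fewer, from 6 to 9 higher and from 2 to 3 lower, whenever 1 library was left out.

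The list of rRNA modification and ribosome assembly moved most often, with 7 of 12 tested members higher and 0 lower. Its median was 0.26, against 0.0049 over all genes tested and 0.03 over those with a mean of at least 50. Its leading members by adjusted p were *Ngrn* (needed for the large subunit rRNA; 2100 and 2012 normalized counts in WT, 2807 and 2993 in the KO-labelled libraries; log2 fold change 0.50 ± 0.09), *Dhx30* (8539 and 8923 against 11298 and 11218; 0.37 ± 0.07) and *Ddx28* (1074 and 1167 against 1462 and 1405; 0.35 ± 0.11), the last pair being RNA helicases of the mitochondrial RNA granule.

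Among genes of mitochondrial transcription, 1 of 9 was lower and 2 were higher. *Mterfd3* (*Mterf2*, of the mitochondrial termination factor family) fell by 0.69 on the log2 scale, and *Mterfd2* (*Mterf4*) and *Tfb2m*, an initiation factor, rose by 0.31 and 0.34. *Polrmt*, the mitochondrial RNA polymerase, had 2226 and 2387 normalized counts in WT and 2061 and 1929 in the KO-labelled libraries, and *Tfam*, which packages and activates the genome, had 4618 and 4630 against 4434 and 3949. Both were chosen for their role, and neither was called (DESeq2 adjusted p = 0.084 and 0.212). In replication and upkeep, 1 of 14 was lower (*Atad3a*, an inner membrane ATPase, at -0.30) and 2 were higher (*Peo1*, the helicase Twinkle, at 0.63, and *Ssbp1*, which binds single-stranded mitochondrial DNA, at 0.31).

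In RNA processing and tRNA modification, 1 of 15 was lower and 3 were higher. *Elac2*, which trims the 3′ ends of tRNA precursors, rose by 0.36, *Cdk5rap1* by 0.29 and *Osgepl1* by 0.37, both tRNA modifying enzymes, and *Pus1*, a pseudouridine synthase, was lower at -0.24. In RNA stability and polyadenylation, 2 of 14 were lower and 3 higher. *Rexo2* and *Supv3l1*, an exonuclease and a helicase of RNA decay, were lower at -0.35 and -0.24, and *Tbrg4*, *Fastkd5* and *Fastkd3*, of the FASTK family of mitochondrial RNA-binding proteins, rose by 0.21, 0.35 and 0.24. *Lrpprc*, which stabilises mitochondrial mRNAs and was also chosen for its role, was at -0.15 and was not called (DESeq2 adjusted p = 0.119).

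Of the nuclear regulators, *Pprc1*, a coactivator of the PGC-1 family, rose by 0.68 on the log2 scale (7796 and 7815 normalized counts in WT, 13582 and 11361 in the KO-labelled libraries), the 1 of 7 tested that was called. *Ppargc1a*, chosen for its role as the founding member of that family, had at most 1.74 normalized counts in any library. Among 13 genes that follow mitochondrial content, *Cs* (citrate synthase) was lower at -0.30, *Tomm22* (an import receptor) was higher at 0.35, and the other 11 were not called. The summed level of the 13 was 240598 and 227677 in WT and 236439 and 245465 in the KO-labelled libraries, with overlapping groups. Chromosomes differed as wholes between the lines, which bears on several of these genes. *Mterfd3*, *Supv3l1*, *Cs*, *Polrmt* and *Tfam* lie on chromosome 10, whose 613 genes with a mean of at least 50 had a median log2 fold change of -0.35, and *Peo1* and *Pprc1* lie on chromosome 19, with a median of 0.38 over 457 genes. *Atad3a* lies on chromosome 4, with a median of -0.21 over 894 genes. *Elac2* and *Tbrg4* lie on chromosome 11, with a median of 0.16 over 1143 genes. *Ngrn*, *Dhx30* and *Ddx28* lie on chromosomes 7, 9 and 8, with medians of 0.09, 0.13 and 0.10. *Rexo2*, *Pus1* and *Fastkd3*, on chromosomes 9, 5 and 13, moved against the medians there (0.13, 0.06 and -0.02). The part of the chromosome shifts in these values was not tested.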

How the data were processed

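RNA was sequenced as paired 75-base reads from stranded libraries in which rRNA was depleted in place of poly-A selection (2 WT and 2 KO-labelled libraries). The authors mapped reads to mm9 with STAR, counted them over GENCODE vM1 genes with featureCounts and deposited these raw counts per gene without normalization. Tool versions, whether counting used strand and how reads with several matches were treated are not given in the sources used here, and the labels and the methods name different instruments (a NextSeq and a HiSeq). Every column of the table was matched to a sample by name.

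Counts were tested across all genes by the Wald test of DESeq2 1.42.0, run in R 4.3.3 (group alone, default size factors and filtering, Benjamini-Hochberg adjustment over all tested genes), checked on simulated counts. Calls use an adjusted p under 0.05 or the study's thresholds. edgeR 4.0.16 was an alternative, as were other scalings, a filter of 10 counts in at least 2 libraries, a replicate block and leaving out each library. Copies were found by aligning the mitochondrial genome to the other chromosomes of mm9 with blastn 2.17.0 and matching 75-base windows exactly. Windows describe single reads, not read pairs. Sequences and positions (1-based) are those of the mm9 assembly and GENCODE vM1. Machinery genes were matched by symbol, including older symbols. *Mterf1b*, *Nsun4* and the marker *Sox1* were not matched.

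The members, the lists and the tests were chosen with earlier results of these data known. All 37 members are accounted for, tRNAs with values where the mean was at least 50 normalized counts. Nuclear genes are named where they hold at least 200 exonic bases in exact copies at a mean of at least 50, and from each list up to 3 genes per direction with the smallest adjusted p under 0.05, with other names marked as such.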

Additional observations from a re-analysis of the deposited data

How the results depend on the processing

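The 4 complex I mRNAs called lower at an adjusted p under 0.05 remained 4 with TMM, total-count and nuclear-gene size factors, a low-count filter and edgeR. Upper-quartile size factors gave 2 (*mt-Nd2* and *mt-Nd6*, no longer called, were at -0.20 and -0.21), and a fold minimum of 2 and the study's thresholds gave 0. Within-mitochondria scaling centres the mRNAs near 0 and raises all genes by construction, so its 0 calls and the values below test nothing. Leaving out 1 library gave 0 to 4 mRNAs, with at most 3 of these 4 genes among them (without WT replicate 2, where *mt-Cytb* was the other one). Replicate numbers did not pair the samples (correlation of same-numbered deviations -0.0177), and the replicate block gave 2 mRNAs, with *mt-Nd2* and *mt-Nd6* at -0.23 and -0.24. Called rRNAs were 0, but 2 with edgeR and 0 to 2 when 1 library was left out. Machinery genes called lower (6) were 0 under within-mitochondria scaling, with a fold minimum and at the study's thresholds, and 2 to 3 without 1 library. Those called higher (19) were 26 under within-mitochondria scaling, 7 under the replicate block, 0 with the fold minimum and at the study's thresholds, and 6 to 9 without 1 library. The median log2 fold change of 8 mRNAs was -0.021 under within-mitochondria scaling and -0.362 to -0.11 without 1 library. The log2 ratio of the rRNA share ran from -1.38 to -0.44 without 1 library. In such fits the lone library is assumed to vary like the other group. Of 156 alternative fold changes of 13 single mitochondrial genes, 11 changed sign, none of them called. Under within-mitochondria scaling, which moves all genes alike (8 mRNAs with a mean of at least 50, since the others had too few counts) these were *mt-Tn* (0.029), *mt-Tc* (0.031), *mt-Co1* (0.14), *mt-Nd4* (0.12), *mt-Cytb* (0.044) and *mt-Tp* (0.056). Without 1 library they were *mt-Co1* (-0.17 to 0.082), *mt-Nd4* (-0.26 to 0.093), *mt-Cytb* (-0.37 to 0.052) and *mt-Tp* (-0.62 to 0.21). The cause of these moves was not tested beyond the construction of each setting. Few libraries limit all of these calls, and 0 to 13 raw counts limit the precision of the 5 fully copied mRNAs, for which the part of the nuclear copies was not tested.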
